A study of Arabidopsis thaliana with 8 samples.

Results

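The balance of 22-nt against 21-nt small RNAs was examined gene by gene in es3dd, an Arabidopsis thaliana line that combines the mutations dcl4-2 and dcl2-1 with ein5-1 and ski2-3. Genes entered when their mean values at 21 and 22 nt in es3dd summed to 20 or more, which 2819 of 32420 genes did. The size ratio of a gene was log2((22-nt mean + 1)/(21-nt mean + 1)), so that a positive ratio means more 22-nt than 21-nt small RNA on the scale of each size class. At the edge of the rule, AT5G18380 at a sum of 20.02 and LARP6b at 20.03 were inside, and AT5G34990 and AT1G53210 at 19.99 were outside. The same rule took 4037 genes in es3, the line with ein5-1 and ski2-3 but without the Dicer mutations.

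Small RNAs were sequenced from aerial parts at 20 days of age, after 6 days on MS medium followed by 14 on soil, in 4 libraries of es3 and 4 of es3dd. Both lines carry the same ein5-1 and ski2-3 mutations, so neither is intact for cytoplasmic RNA decay, and es3dd adds dcl4-2 and dcl2-1. The wild type, Col, appeared only as the authors' means and is not among the labelled libraries, so it is given here as a value with no error. The labels call the libraries biological replicates. The SEs and p-values of limma below pool the spread between libraries over genes of similar level, and can understate that of a single gene. At MIR160b in es3dd, for example, the 21-nt libraries held 20.4 to 385 and the size groups overlapped, while the SE of its difference was 0.20.

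EIN5 is a cytoplasmic 5′-to-3′ exoribonuclease and SKI2 a helicase that feeds the cytoplasmic exosome. Dicer enzymes cut small RNAs to length from double-stranded RNA, with DCL4 known for 21-nt and DCL2 for 22-nt small interfering RNAs (siRNAs), while DCL1 cuts microRNAs (miRNAs) from hairpins encoded at MIR loci, mostly at 21 nt. Some hairpins yield 22-nt miRNAs, and a 22-nt miRNA bound to AGO1 is known in plants for starting the production of secondary siRNAs from its target.

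The annotated mature miRNAs of the loci on which the MIR results turn are shown first, since their length can be set beside the length of the small RNAs counted at each locus. They come from RefSeq, build TAIR10.1, are written 5′ to 3′, and have the seed, bases 2 to 8, in capitals. The first 6 belong to loci that were strongly biased to 21 nt.
miR159a (21 nt, chr1:27713234-27713254, minus strand): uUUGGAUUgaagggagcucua
miR167b (21 nt, chr3:23406177-23406197, plus strand): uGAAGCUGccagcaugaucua
miR845a (21 nt, chr4:12217457-12217477, minus strand): cGGCUCUGauaccaauugaug
miR173-5p (22 nt, chr3:8236161-8236182, plus strand): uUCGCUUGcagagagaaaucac
miR393b-5p (22 nt, chr3:20691657-20691678, plus strand): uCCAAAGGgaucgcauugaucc
miR402 (22 nt, chr1:29016586-29016607, plus strand): uUCGAGGCcuauuaaaccucug
The next 6 belong to loci that were even or biased to 22 nt.
miR845b (22 nt, chr4:12214086-12214107, minus strand): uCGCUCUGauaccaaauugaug
miR831-3p (22 nt, chr2:10247390-10247411, plus strand): uGAUCUCUucguacucuucuug
miR850 (22 nt, chr4:7845756-7845777, plus strand): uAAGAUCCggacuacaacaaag
miR848 (22 nt, chr5:4479448-4479469, minus strand): uGACAUGGgacugccuaagcua
miR167d (22 nt, chr1:11137556-11137577, plus strand): uGAAGCUGccagcaugaucugg
miR319c (21 nt, chr2:17029870-17029890, plus strand): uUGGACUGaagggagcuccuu
miR167b and miR167d share a seed, and the other seeds shown differ from one another. The files count small RNAs per locus and not per hairpin arm, so a locus value can hold both arms and any shifted or trimmed form.

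Locus class divided the genes. Among the 2819 genes, 1694 were pseudogenes in RefSeq, a class under which RefSeq keeps most Arabidopsis transposable element genes, 767 were protein-coding, 113 were MIR loci, 110 were transcribed pseudogenes, 77 were plastid-encoded, 46 were mitochondrion-encoded and 12 had no RefSeq match. MIR loci had a median ratio of -3.83, plastid-encoded genes -0.35, protein-coding genes 0.14, mitochondrion-encoded genes 0.45, transcribed pseudogenes 0.57 and pseudogenes 0.69. A ratio above 0 was found for 94.9% of the pseudogenes, 61.5% of the protein-coding genes and 10.6% of the MIR loci. In all, 450 genes had a ratio of 1 or more and 152 had -1 or less, and 90 of those 152 were MIR loci. The median was 0.55 over the 2819 genes and 0.21 over the 12528 genes with a mean of at least 1 in the size test. For the same genes in es3 and Col, the medians were 1.26 and 0.94 for pseudogenes and -3.18 and -3.35 for MIR loci. They were 0.98 and 0.68 for transcribed pseudogenes and 0.95 and 0.64 for mitochondrion-encoded genes. Protein-coding genes had -0.21 and 0.00, and plastid-encoded genes 0.04 and -0.37. The 22-nt lean of pseudogenes was thus present in es3 and Col too, and on the authors' scale was smallest in es3dd. That order depends on the scale. The median change of pseudogenes from es3 to es3dd was -0.56 on the authors' scale and -1.04 with the medians of all columns set equal. With plastid-encoded genes as the scale it was -0.02.

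**Figure D1:**
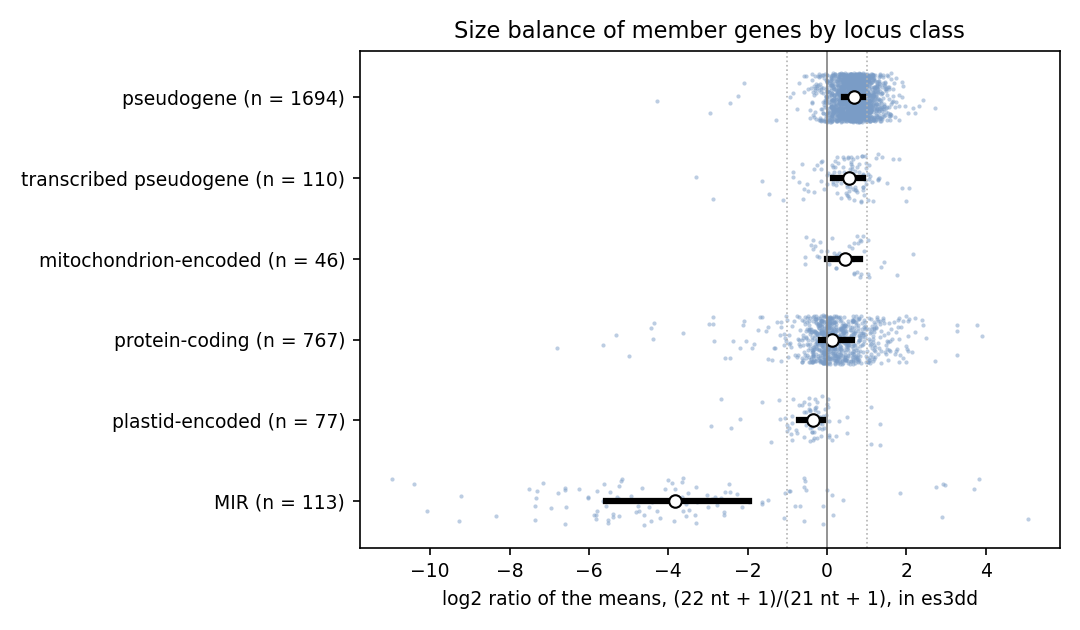
Size ratio of each gene in es3dd by locus class, as the log2 ratio of the 22-nt to the 21-nt mean, each with 1 added; points are genes, circles medians and bars the range from the lower to the upper quartile. MIR loci spread from -10.97 to 5.07 with a median of -3.83, while the pseudogenes crowd to the right of 0 around 0.69.

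The classes also held unequal parts of the total signal. MIR loci carried 83.0% of the summed 21-nt means of all genes in es3dd and 28.4% of the 22-nt means. Pseudogenes carried 5.52% and 30.3%, and protein-coding genes in the rule 4.51% and 13.6%. Pseudogenes leaned to 22 nt at every level of signal. Their median ratio was 0.69 for the 746 with a sum from 20 to below 40, 0.70 and 0.66 in the next doublings, and 0.72 for the 77 with a sum of 160 or more. In the same bins the medians of protein-coding genes were 0.14, 0.23, 0.05 and -0.00. In bulk tissue, fewer cells of a type and less RNA per cell cannot be told apart, and that holds for every value here.

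Library values allowed a test of the bias gene by gene. They were recovered from the deposited means for 2776 of the 2819 genes. The other 43 were 37 MIR loci, 4 plastid-encoded genes and 2 protein-coding genes, all of them abundant, and are given by the authors' means alone. A gene was called biased at an adjusted p below 0.05 (limma, Benjamini-Hochberg over 12528 genes) and a log2 difference of 1 or more in size. Calls in either direction took 8.36% of all genes tested. Among the tested genes of the rule, 489 (17.6%) were called higher at 22 nt, against 6.74% of all genes tested, and 121 (4.36%) were called higher at 21 nt, against 1.61%. The 4 values of one size class lay entirely above the 4 of the other for 1114 genes at 22 nt and 159 at 21 nt, against 12.6% and 3.38% of all genes tested. A gene with more small RNA passes such a test more easily, so these shares are given as a description. The 4 values of each size class came from the same 4 libraries of plants, and which 21-nt value belongs with which 22-nt value is not known.

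The zero of the ratio depends on how the size classes are scaled to each other. On the authors' own scales the median difference of all 12528 genes was 0.22, with 845 called to 22 nt and 202 to 21 nt, so that 80.7% of calls were to 22 nt. With the medians of all columns set equal, the median became -0.02 and the share 55.8%, and with plastid-encoded genes as the scale 0.87 and 97.1%. For the genes of the rule the share of calls to 22 nt was 80.2%, 61.6% and 95.3% under those scales. MIR loci stayed on the 21-nt side, at medians of -3.54, -3.78 and -2.89, and pseudogenes on the 22-nt side, at 0.70, 0.46 and 1.35, under the same scales. The protein-coding median of 0.15 turned to -0.09 with equal medians, and the plastid-encoded median of -0.37 turned to 0.28 on the plastid scale, which sets those genes near 0 by construction.

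Of the 76 MIR loci tested, 59 (77.6%) were called higher at 21 nt and 6 (7.89%) higher at 22 nt. Those shares were 4.36% and 17.6% among all tested genes of the rule. The lowest ratios belonged to abundant loci described from the authors' means. MIR167b, of the miR167 family that acts on auxin response factors ARF6 and ARF8, stood at 6382 at 21 nt and 2.17 at 22 nt, a ratio of -10.97. MIR393b stood at 23382 and 16.2, a ratio of -10.41. MIR845a stood at 2004 and 0.862, a ratio of -10.07, and MIR159a, whose miRNA represses GAMYB-like MYB genes, stood at 106095 and 172, a ratio of -9.26. Of these 4 loci, MIR393b is annotated with miRNAs of 21 and 22 nt and the others with 21 nt only. MIR167b and MIR845a were chosen after their values were seen.

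The most abundant 21-nt locus was MIR161, which acts on pentatricopeptide repeat (PPR) genes, at 122416 against 3390.5 at 22 nt. MIR159a, MIR159b at 91268, MIR162b at 45700.4, MIR393b at 23382, MIR396b at 22052, MIR173 at 19864 and MIR165a at 17777 followed at 21 nt. At 22 nt the order was another one. MIR162b led with 7215, then MIR159b with 6317, MIR166g with 5568, MIR166e with 5539, MIR166f with 5531, MIR850 with 4201, MIR319c with 3727 and MIR161 with 3390.5. The 8 leading loci of both size classes were all MIR loci, and MIR161, MIR159b and MIR162b were in both groups.

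MIR loci with library values show how firm the bias was. At MIR170 on chromosome 5, from 26411580 to 26411672, a relative of the MIR171 loci that act on GRAS-family HAM genes, the 4 libraries held 238, 258, 262 and 268 at 21 nt and 0, 0, 0.805 and 3.56 at 22 nt. The groups lay far apart, with a log2 difference of -7.25 ± 0.27 (SE, limma, n = 4 and 4, adjusted p = 2.1e-160). The 6 MIR395 loci, which act on sulfate assimilation genes, lay close to one another. MIR395b and MIR395c had equal values in every library, 983 to 1078 at 21 nt and 2.41 to 9.63 at 22 nt, for a difference of -7.47 ± 0.16. MIR395f was at -7.42 ± 0.16, and MIR395a, MIR395d and MIR395e were at -6.88 ± 0.21, -6.87 ± 0.21 and -6.88 ± 0.21. Loci with near-identical sequence can share reads, and how the authors counted a read that maps to several loci is not given in the sources used here, so these 6 are not 6 separate observations.

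Annotated length set most MIR loci apart. The 78 loci whose annotated mature miRNAs are all 21 nt had a median ratio of -4.25, with 67 at -1 or less and 3 at 1 or more. The 8 loci whose mature miRNAs are all 22 nt had a median of 1.12, with 4 at 1 or more, 3 between and 1 at -1 or less. Loci annotated with both lengths (8) had a median of -3.80, those with 20 and 21 nt (8) -4.57 and those with 20 nt only (5) -4.42. These medians describe the loci and were not tested, because several loci share sequence. In es3 the medians of the all-21-nt and all-22-nt loci were -3.62 and 0.90, and in Col -3.69 and -0.02.

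Within the 22-nt group the loci differed widely. All 8 are given, of which MIR831, MIR848, MIR167d, MIR833a, MIR447b and MIR402 were chosen after values were seen. MIR845b held 0, 0, 0.886 and 0.931 at 21 nt and 27.6, 40.7, 58.7 and 64.4 at 22 nt. Its difference was 5.07 ± 0.39 (limma, adjusted p = 6.95e-36), and no 21-nt value came near a 22-nt one. MIR845b and MIR845a, whose mature miRNAs are shown above, lay on opposite sides, at ratios of 5.07 and -10.07. Their sides were the same in es3, at 4.35 and -10.76, and in Col, at 6.06 and -8.03. MIR831 stood at 5.05 ± 1.78 and 47.0 ± 11.1 (SD, n = 4), MIR848 at 26.6 ± 6.29 and 98.0 ± 58.9, and MIR850 at 624 ± 68.9 at 21 nt against the authors' mean of 4201 at 22 nt. MIR848 was called at 1.44 ± 0.20 with limma, but its size groups overlapped. Its ratio was 1.85 in es3dd, 1.59 in es3 and 0.05 in Col. In the same order the ratios were 2.99, 2.82 and 1.15 at MIR831 and 2.75, 1.19 and 0.81 at MIR850. MIR167d, at 421 ± 136 and 554 ± 85.4, and MIR833a, at 71.0 ± 11.7 and 77.8 ± 15.5, missed the size required for a call, as did MIR447b, at 482 ± 43.6 and 322 ± 37.8. MIR402 went the other way, at 32.6 ± 3.01 and 1.11 ± 1.33, a difference of -4.23 ± 0.40 (limma, adjusted p = 3.44e-24).

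MIR167b and MIR167d share a seed but not a length. MIR167b is annotated at 21 nt and had a ratio of -10.97, and MIR167d is annotated at 22 nt and had a ratio of 0.40. The locus with the longer annotated miRNA had nearly equal values and the other almost wholly 21-nt values.

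Among the loci with only 21-nt annotated miRNAs, 3 had a ratio of 1 or more. MIR319c, whose miRNA acts on TCP transcription factors, held 237, 509, 595 and 609 at 21 nt and an authors' mean of 3727 at 22 nt. Its ratio was 2.93 in es3dd, 4.23 in es3 and 3.81 in Col. MIR169i held 3.86 to 11.5 at 21 nt and 42.0 to 82.7 at 22 nt, with a difference of 2.93 ± 0.26 (limma, adjusted p = 7.13e-27). MIR169k held 0, 0, 0 and 3.66 at 21 nt and 14.1, 16.9, 25.8 and 39.4 at 22 nt, with a difference of 3.99 ± 0.45 (limma, adjusted p = 5.53e-17). MIR169 miRNAs act on NF-YA transcription factors, and the other 5 MIR169 loci in the rule were all called to 21 nt. MIR169f was at -5.91 ± 0.15, MIR169a at -3.93 ± 0.37, MIR169e at -2.64 ± 0.18, MIR169g at -2.46 ± 0.13 and MIR169d at -2.26 ± 0.13. Another 7 of the 14 MIR169 loci listed were below the rule.

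MIR156b, a locus of the miR156 family that acts on SPL genes, was biased to 22 nt although neither of its annotated miRNAs is 22 nt long. The 4 libraries held 54.9, 62.8, 69.5 and 85.6 at 21 nt and 870.4, 975, 1029 and 1043 at 22 nt, a difference of 3.84 ± 0.10 with limma. The ratio of MIR156b was 3.82 in es3dd, 3.26 in es3 and 3.23 in Col. Its annotated forms are given here because of that mismatch in length, with the seed in capitals.
miR156b-5p (20 nt, chr4:15074945-15074964, plus strand): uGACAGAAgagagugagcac
miR156b-3p (23 nt, chr4:15075004-15075026, plus strand): uGCUCACCucucuuucugucagu

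**Figure D2:**
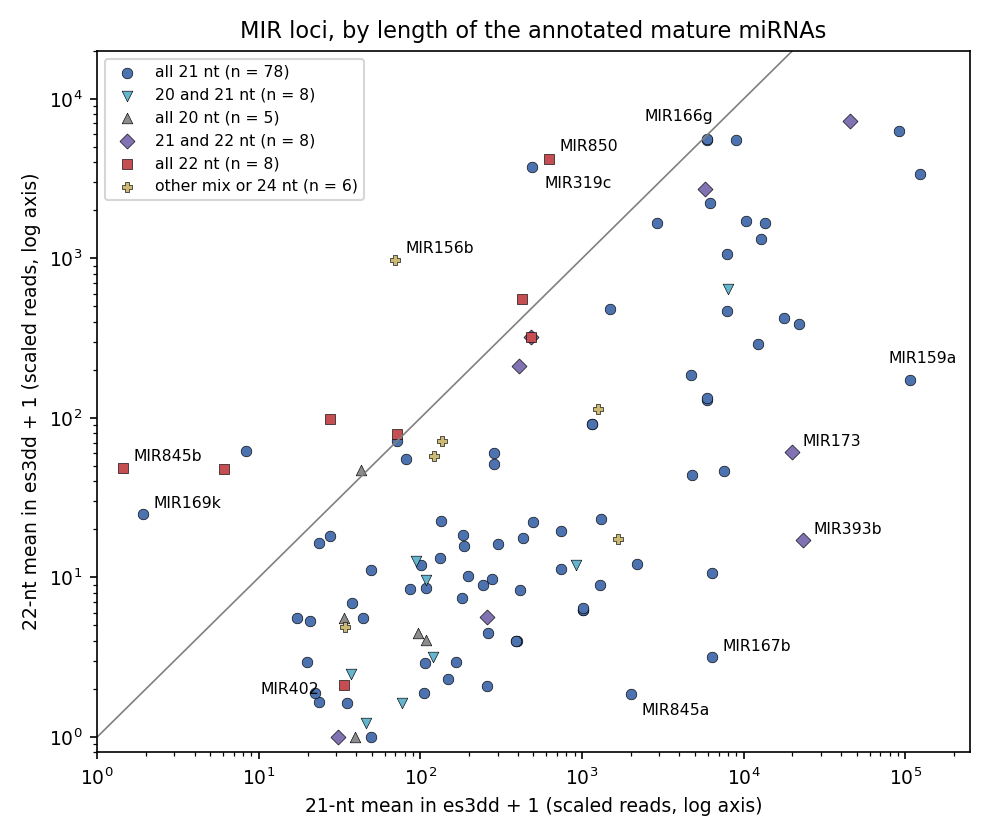
Mean at 21 nt against mean at 22 nt in es3dd for the 113 MIR loci, each with 1 added, on log axes, with symbols for the length of the annotated mature miRNAs and a line where both are equal. Most of the 78 loci with 21-nt miRNAs lie below the line, while MIR845b, MIR850, MIR319c, MIR156b and MIR169k lie above it.

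The MIR165 and MIR166 loci, which act on HD-ZIP III transcription factors of leaf polarity, carry nearly the same mature miRNA but differed in balance. The 21-nt means ran from 5905 at MIR166d to 17777 at MIR165a. The 22-nt means were 5539, 5531 and 5568 at MIR166e, MIR166f and MIR166g, for ratios of -0.69, -0.10 and -0.09. At the other MIR166 loci the 22-nt means were 1319 at MIR166a, 290 at MIR166b, 128 at MIR166c and 132 at MIR166d, for ratios of -3.28, -5.40, -5.52 and -5.47. The loci differ in the genomic base that follows the mature miRNA, which a 22-nt form extended at its 3′ end would take up. The mature form is written in lower case and that next base in capitals.
MIR166c (chr5:2838737-2838757, plus strand): ucggaccaggcuucauuccccC
MIR166e (chr5:16775524-16775544, minus strand): ucggaccaggcuucauuccccU
MIR166f (chr5:17516378-17516398, plus strand): ucggaccaggcuucauuccccU
MIR166g (chr5:25504882-25504902, plus strand): ucggaccaggcuucauuccccU
MIR165a (chr1:78932-78952, minus strand): ucggaccaggcuucaucccccC
MIR165b (chr4:369856-369876, minus strand): ucggaccaggcuucaucccccU
The next base was U at MIR166e, MIR166f and MIR166g and C at the other 4 MIR166 loci. At the MIR165 pair it was C at MIR165a, with 421 at 22 nt and a ratio of -5.40, and U at MIR165b, with 1660 and -3.03. Over the loci with a single 21-nt mature miRNA the next base did not divide the ratios in that way. Medians were -4.54 for A (10 loci), -5.47 for C (13), -3.42 for G (2) and -4.21 for U (13), with ranges that overlapped. The MIR166 loci share 1 mature sequence, so a 22-nt read extended at its 3′ end can be placed among them only by its last base. Reads may also be shared. The 21-nt means were 5923, 5905, 5913 and 5939 at MIR166c, MIR166d, MIR166f and MIR166g, and 8923 to 12857 at the others. These loci are therefore not separate observations, and whether the next base set the balance was not tested.

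The MIR loci that trigger secondary siRNAs were biased to 21 nt, as were most MIR loci. Of 8 listed, 6 were in the rule, where 63.5% of all MIR loci were. Their ratios ran from -10.41 to -5.17 with a median of -6.88, against a median of -3.83 for all 113 MIR loci. Both of those that could be tested were called to 21 nt, as were 77.6% of all tested MIR loci. MIR173, whose miRNA starts tasiRNA production from TAS1 and TAS2, stood at 19864 at 21 nt and at 51.7, 52.2, 66.7 and 68.4 in the 4 libraries at 22 nt. MIR393b, of the family acting on the auxin receptors TIR1 and AFB, stood at 23382 at 21 nt and at 6.44, 14.2, 16.6 and 27.4 at 22 nt. In es3 and Col the ratios were -7.16 and -8.69 at MIR173 and -8.54 and -8.52 at MIR393b. The annotated miR173-5p and miR393b-5p shown above are 22 nt long, and each of these loci also has a 21-nt 3p miRNA. Library values showed the same side elsewhere. MIR393a was called at -5.87 ± 0.22 and MIR390b, whose miRNA acts on TAS3 with AGO7, at -6.26 ± 0.14 with limma. Without 1 of the 22-nt libraries MIR393a was at -5.17. MIR472 and MIR828 were below the rule, with sums of at most 2.83.

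MIR loci acting on silencing factors were less one-sided. All 5 were in the rule, with ratios from -2.66 to -0.95 and a median of -1.49. MIR162b, whose miRNA acts on DCL1, stood at 45700.4 and 7215, MIR168a, acting on AGO1, at 10330.5 and 1717, MIR168b at 6219 and 2218, and MIR403, acting on AGO2, at 5785 and 2719.5. MIR162a, the only one with library values, held 392, 393, 409 and 438 at 21 nt and 204, 205, 212 and 221 at 22 nt. Its groups did not overlap, and its difference of -0.95 ± 0.09 missed the size required for a call.

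The targeted genes themselves gave few small RNAs of either size in es3dd. DCL4 stood at 1.58 at 21 nt and 2.35 at 22 nt, DCL2 at 0.241 and 0.201, EIN5 at 1.13 and 0.625, and SKI2 at 0.233 and 1.09. Small RNA values are no measure of the mRNA, so they check no genotype. Of 13 targeted and silencing genes listed, AGO2 and AGO1 were in the rule, and the highest sum among the others was 7.14.

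AGO2, an Argonaute protein of antiviral defence, was strongly biased to 21 nt. Its libraries held 38.1, 99.7, 102 and 155 at 21 nt and 0, 0.805, 2.63 and 2.67 at 22 nt. The lowest 21-nt value was far above the highest 22-nt value, at a difference of -5.33 ± 0.31 (limma, adjusted p = 3.5e-63). AGO2 holds a known miR403 target, and the matching stretch is shown with the position that does not pair in capitals, together with the miRNA and its seed.
AGO2 site (chr1:11185223-11185243, plus strand): Ggagtttgtgcgtgaatctaa
miR403-3p (21 nt, chr2:19415154-19415174, plus strand): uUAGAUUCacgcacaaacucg
AGO1, the main Argonaute protein of the miRNA pathway, held 9.15, 12.4, 13.5 and 24.2 at 21 nt and 2.41, 11.6, 12.4 and 14.9 at 22 nt. Its groups overlapped and it was not called.

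Protein-coding genes were spread to both sides, with 108 (14.1%) called to 22 nt and 40 (5.23%) to 21 nt among 765 tested. Those shares were 17.6% and 4.36% among all tested genes of the rule. AT3G57710, the kinase-like gene RKS1 on chromosome 3 from 21384676 to 21387399, held 265, 316, 365 and 375 at 21 nt and 0.876, 0.884, 1.61 and 4.44 at 22 nt. Its difference was -6.95 ± 0.23 (limma, adjusted p = 1.61e-194), the lowest among protein-coding genes tested in the rule. Its neighbours AT3G57720 and AT3G57730, kinase-like genes too and chosen after their values were seen, stood at 189 ± 17.4 and 30.9 ± 5.50, and at 112 ± 18.1 and 4.46 ± 1.99. They were called at -2.59 ± 0.16 and -4.42 ± 0.25 with limma. The gene models of AT3G57720 and AT3G57730 overlap, so their reads may be shared. CSK, the chloroplast sensor kinase, held 30.1, 32.8, 33.5 and 35.7 at 21 nt and 0, 0, 0.884 and 1.61 at 22 nt, a difference of -4.51 ± 0.41 (limma, adjusted p = 1.12e-25).

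Several genes low in ratio overlapped a miRNA or its match. Among the 2571 nuclear genes of the rule outside MIR loci whose sequence was searched on both strands, 77 (3.00%) held a stretch with at most 1 mismatch to an annotated mature miRNA. The share was 5 of 8 at a ratio of -4 or less, 7 of 26 at -2 or less, 2 of 25 above -2 and up to -1, 60 of 2091 (2.87%) between -1 and 1, and 8 of 429 (1.86%) at 1 or more. AT1G12290, a CC-NBS-LRR disease resistance gene, overlaps MIR472, AT4G30750 overlaps MIR5634, and the pseudogene AT4G04409 overlaps MIR841b. AT1G61230, a lectin gene, holds a 1-mismatch match to miR846-3p. Apart from AT4G30750, these genes were chosen after their values were seen. A match is a description of the sequence and was not tested as a source of the small RNAs. MIR472 itself was listed at 0 in both size classes, while AT1G12290 held 115, 123, 135 and 165 at 21 nt and 0, 0.876, 2.65 and 3.22 at 22 nt. The miRNA annotated inside AT1G12290 is shown because the locus value and the gene value part there.
miR472-3p (22 nt, chr1:4182143-4182164, minus strand): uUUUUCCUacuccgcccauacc

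On the 22-nt side, AT2G10920, an uncharacterised gene, held 0, 0, 1.77 and 1.83 at 21 nt and 20.4, 21.7, 30.9 and 36.8 at 22 nt. Its difference was 4.05 ± 0.42 (limma, adjusted p = 6.61e-20), the highest among protein-coding genes tested in the rule. AT4G20095, of a family of unknown function, held 0, 0.966, 1.77 and 3.72 against 22.8, 31.8, 39.1 and 46.7, a difference of 3.96 ± 0.38 (limma, adjusted p = 1.09e-23). AT3G53065, a lectin-like gene, was at 3.61 ± 0.44, and AT1G53885 and AT1G53903, which had equal values in every library, at 3.38 ± 0.43. At 21 nt these 5 genes had means of 0.900 to 1.62, close to 1 read a library, so their 22-nt values carry the contrast and the size of the ratio is poorly fixed.

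IQD14, of the IQ-domain family of calmodulin-binding proteins, was biased at a higher level. It held 3.86, 5.32, 15.5 and 20.5 at 21 nt and 43.3, 63.6, 74.7 and 141 at 22 nt, a difference of 2.86 ± 0.24 (limma, adjusted p = 3.18e-31). AT5G38850, a TIR-NBS-LRR disease resistance gene chosen after its values were seen, had every 22-nt value above every 21-nt value. It held 117, 139, 143 and 168 at 21 nt and 511, 515, 561 and 563 at 22 nt, a difference of 1.92 ± 0.10 (limma, adjusted p = 1.17e-85). SWEET12, a sucrose exporter of the phloem, held 2.79 in 1 library and 9.66 to 10.6 in the others against 22.2, 26.3, 33.6 and 34.6.

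**Figure D3:**
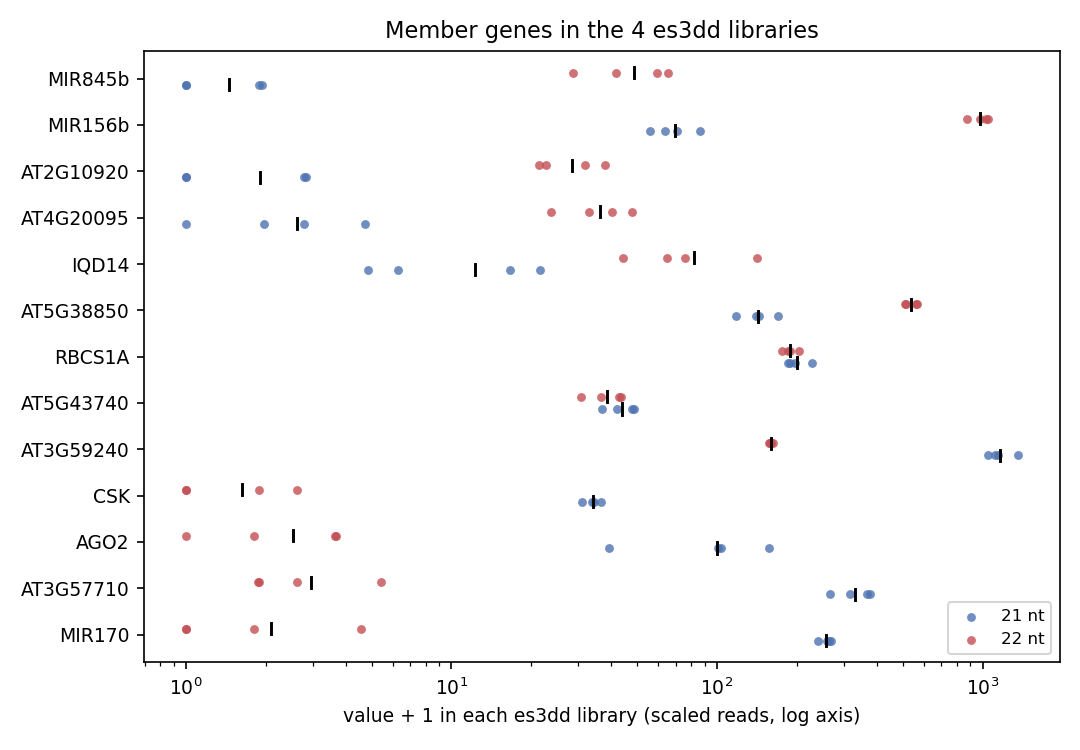
Values of 13 genes in the 4 es3dd libraries at 21 nt and at 22 nt, with 1 added, on a log axis; points are libraries and black bars the group means. The groups stand apart for every gene drawn except RBCS1A and AT5G43740, where they overlap.

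Genes known as siRNA sources in plants with RNA decay defects had low values in es3dd. Of 28 listed, 6 were in the rule, with ratios from -1.15 to 0.30, and the highest sum among the other 22 was 16.4. AFB2, an auxin receptor, held 17.4, 22.9, 27.5 and 34.4 at 21 nt and 25.8, 26.5, 35.0 and 39.4 at 22 nt, overlapping and not called. NIA2, a nitrate reductase, stood at 26.5 ± 6.28 and 17.7 ± 2.99 against authors' means of 12110.4 and 3343 in es3, and was not called. AT5G43740, a disease resistance gene, stood at 42.8 ± 5.57 and 37.4 ± 5.96 against 2124 and 288 in es3, with a match to miR472-3p whose mismatch is in capitals.
AT5G43740 site (chr5:17566541-17566562, plus strand): ggtatgggGggagtaggaaaaa
The PPR gene AT1G63080 was the 1 called gene of this list. It held 11.5, 16.5, 17.4 and 18.6 at 21 nt and 2.65, 6.44, 7.11 and 10.5 at 22 nt, a difference of -1.24 ± 0.35 (limma, adjusted p = 0.0045). Without 1 of the 22-nt libraries the difference was -0.92, short of the size required, and it was -0.59 on the plastid scale.

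The 3 loci known to be raised in es3dd, a list taken from earlier results of these data, leaned to 21 nt. AT3G59240, an RNI-like gene, held 1046, 1115, 1143 and 1360.1 at 21 nt and 156, 157, 158 and 162 at 22 nt, a difference of -2.87 ± 0.08 with limma. AT2G14090, a transcribed pseudogene, was close to it at 1155 ± 119.9 and 158 ± 4.51. AT2G14070 stood at 273 ± 27.9 and 148 ± 5.74, a difference of -0.88 ± 0.11 that missed the size required. In es3 and Col the ratios were -1.92 and -2.84 at AT3G59240, -2.14 and -2.82 at AT2G14090, and 0.14 and -0.82 at AT2G14070.

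Housekeeping and leaf mRNAs gave an even balance. All 6 listed were in the rule, with ratios from -0.72 to 0.40 and 0 calls by limma. At an unadjusted p below 0.05 there was 1 of them, GAPC1, and limma with voom weights called 0. RBCS1A, a small subunit of Rubisco, held 184, 187, 196 and 226 at 21 nt and 175, 184, 187 and 203 at 22 nt, and its groups overlapped. CAB1, a chlorophyll a/b-binding protein, stood at 509 ± 23.0 and 498 ± 44.9. SCR and SHR, listed as root genes, had sums of 3.31 and 7.94, below the rule, which 8.70% of all genes met. Small RNA values are no measure of the mRNA, so these sums do not describe the tissue.

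Pseudogenes, the largest class, had the most calls to 22 nt, with 344 of 1694 tested (20.3%). That share was near the 17.6% of all tested genes of the rule, and 6.74% of all genes tested were so called. Only 6 pseudogenes (0.35%) were called to 21 nt, against 4.36% and 1.61%. AT3G45120 held 1.83, 3.72, 7.73 and 10.6 at 21 nt and 29.3, 48.2, 50.7 and 53.0 at 22 nt, a difference of 2.90 ± 0.29 (limma, adjusted p = 4.07e-21). AT1G46120 stood against the class, at 654, 687, 718 and 777 at 21 nt and 80.004, 82.9, 86.7 and 114 at 22 nt, a difference of -2.96 ± 0.10 (limma, adjusted p = 6.34e-190). Both were chosen after their values were seen. With equal medians the calls of the class became 143 and 10.

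Organelle genes were called to both sides. Of 73 plastid-encoded genes tested, 2 (2.74%) were called to 22 nt and 11 (15.1%) to 21 nt. Those shares were 17.6% and 4.36% among the tested genes of the rule, and 6.74% and 1.61% among all genes tested. The plastid calls became 0 and 19 with equal medians and 4 and 4 on the plastid scale. All 6 calls among 46 mitochondrion-encoded genes were to 22 nt, or 13.04% of them against 17.6% of the genes of the rule. At an unadjusted p below 0.05, 22 of those were higher at 22 nt and 2 at 21 nt with limma. ATCG00430 stood at 317 ± 33.3 and 41.2 ± 4.25, and ATCG00840 and ATCG01300, equal in every library, at 524 ± 134 and 1132 ± 206. The last pair, called at 1.14 ± 0.07 with limma, was at 0.90 with equal medians and 0.92 without 1 of the 21-nt libraries, short of a call. ATCG00530 changed in balance by -1.53 ± 0.32 against es3, a call lost on the plastid scale at -0.98. These genes were chosen after their values were seen.

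Whether a bias was also present with DCL4 and DCL2 intact was read from es3. Of the 489 genes called to 22 nt in es3dd, the ratio in es3 was 1 or more for 363, from 0 to 1 for 118 and on the other side for 8. Of the 121 called to 21 nt, it was -1 or less for 96, between for 17 and on the other side for 8. In Col, the numbers were 295, 186 and 8, and 100, 17 and 4. A ratio of 1 or more in es3 was thus found for 74.2% of the first set, against 53.6% of all 2776 tested genes of the rule, and -1 or less for 79.3% of the second, against 10.3%. In Col the shares were 60.3% against 34.9%, and 82.6% against 4.90%. These shares were not tested. Their median ratios in es3dd, es3 and Col were 1.19, 1.35 and 1.11 for the first set and -2.87, -2.05 and -2.54 for the second.

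The change of balance itself, the difference in es3dd minus that in es3, was tested in one fit of both genotypes. Among the 2758 genes of the rule tested, 164 moved toward 22 nt in es3dd and 353 toward 21 nt, where 10% and 2.48% of all 16633 genes tested did. The rule used the es3dd values that enter this change, and genes that lost their small RNA in es3dd are not in it, so nothing is read from the members' shares against those of all genes. The calls depended on the scale. For all genes the median change was 0.53 on the authors' scale, 0.06 with equal medians and 1.08 on the plastid scale, with 80.1%, 34.2% and 98.1% of calls toward 22 nt. For the genes of the rule those shares were 31.7%, 7.65% and 82.1%.

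Genes that moved toward 22 nt were nearly all protein-coding, 157 of 164 (95.7%), where this class made up 27.2% of the genes of the rule tested. Pseudogenes were 239 of the 353 that moved toward 21 nt (67.7%), near their 61.4% of the genes tested. The 157 protein-coding genes had a median of 101 at 21 nt in es3 and 15.5 in es3dd, and of 35.6 and 18.6 at 22 nt. At 21 nt 154 of them were lower in es3dd, and their median ratio went from -1.39 to 0.05. The 239 pseudogenes had a median of 13.8 at 21 nt in es3 and 28.1 in es3dd, and of 41.7 and 36.3 at 22 nt, and their median ratio went from 1.64 to 0.38. The protein-coding class gave 157 calls toward 22 nt and 60 toward 21 nt on the authors' scale, but 74 and 126 with equal medians. The pseudogenes gave 4 and 239, and 25 and 33 on the plastid scale.

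**Figure D4:**
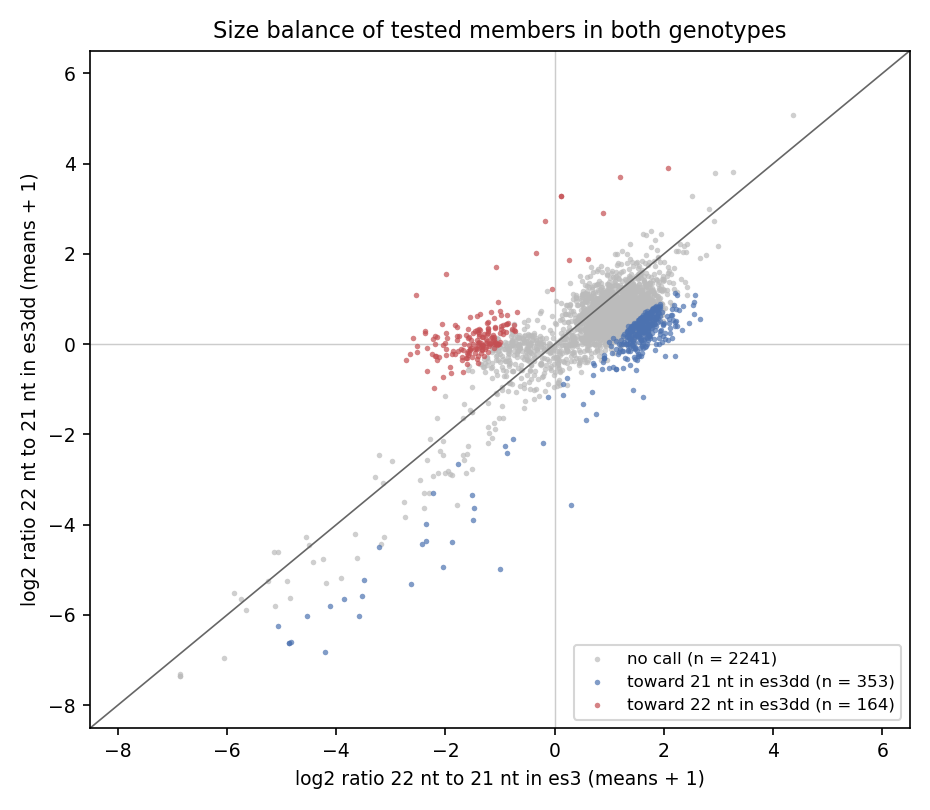
Size ratio in es3 against size ratio in es3dd for the 2758 genes tested in both, as log2 ratios of the means with 1 added, with the diagonal where both are equal; blue points moved toward 21 nt in es3dd and red points toward 22 nt by limma. The 164 red points lie mostly left of 0 in es3 and near 0 in es3dd, and the 353 blue points lie below the diagonal.

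Among genes moving toward 22 nt, AT3G23690, a bHLH transcription factor gene, stood at 293 and 49.4 in es3 and held 6.51, 12.4, 12.6 and 17.4 at 21 nt and 21.3, 21.7, 32.4 and 33.6 at 22 nt in es3dd. The change was 3.68 ± 0.28 (limma, adjusted p = 2.15e-16). AT4G34220, a leucine-rich repeat kinase gene, changed by 3.56 ± 0.40 and IQD14 by 3.07 ± 0.42. SWEET12 changed by 2.89 ± 0.36. AFB2 changed by 2.70 ± 0.20 (limma, adjusted p = 3.58e-16), from 676 and 130 in es3 to 25.5 and 31.7. AFB3 and TIR1, also auxin receptors, changed by 1.195 ± 0.30 and 1.37 ± 0.33, and CAB1 by 1.17 ± 0.08. With equal medians those 3 became 0.72, 0.90 and 0.70 and lost their calls, and AFB3 was at 0.94 without 1 of the 21-nt es3dd libraries. The 22-nt bias of AT3G23690 within es3dd, 1.14 ± 0.28 (limma, adjusted p = 0.000805), became 0.89 without that library. AT5G38850 went from a ratio of -2.26 in es3 and -2.24 in Col to 1.91 in es3dd, but its 21-nt mean of 2145 in es3 was not recovered and the change was not tested.

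Among genes moving toward 21 nt, AT4G30750 changed by -3.77 ± 0.66 (limma, adjusted p = 3.15e-05) and MIR447c by -2.98 ± 0.66 (limma, adjusted p = 0.00127). MIR447c was listed at 0 at 22 nt in both genotypes, so its change rests on 21-nt means of 3.15 in es3 and 29.7 in es3dd, and its size depends on the 1 added. The 22-nt means were also low at AT4G30750, at 1.84 in es3 and 0.660 in es3dd, against 4.68 and 51.5 at 21 nt. At CSK the 22-nt means were 1.93 and 0.623, and at AT3G57710 2.56 and 1.95, so these sizes depend on the 1 added too. AGO2 stood at 92.3 and 14.1 in es3 and changed by -2.71 ± 0.43, with a 21-nt mean in es3dd of 98.9. The ratio of AGO2 in Col, -5.21, was close to the -5.31 of es3dd, against -2.62 in es3. AT3G57710 changed by -2.51 ± 0.45 and CSK by -2.60 ± 0.58. AT2G03570, an uncharacterised gene, changed by -2.71 ± 0.40, from 6.6 and 22.4 in es3 to 46.5 and 20.0. MIR160b, whose miRNA acts on ARF10, ARF16 and ARF17, was uneven, with 20.4, 68.6, 268 and 385 at 21 nt in es3dd and 8.85, 12.4, 15.8 and 22.2 at 22 nt. Its change of -3.28 ± 0.61 (limma, adjusted p = 8.61e-05) was lost with voom weights, as were those of AT3G57710 and AT1G12290. MIR160b changed by -2.68 and -4.07 without its highest and its lowest 21-nt library. In Col, es3 and es3dd the ratios were -2.79, 0.30 and -3.56 at MIR160b and -3.18, -1.89 and -4.39 at CSK. They were -5.73, -4.20 and -6.81 at AT3G57710, and AT4G30750 was at -3.20 in Col and -4.98 in es3dd. Col lay nearer es3 at MIR447c (-2.46, -2.05 and -4.94) and AT2G03570 (0.81, 1.62 and -1.18). Whether es3 or es3dd departed from Col was not tested. AT2G03570 was called to 21 nt within es3dd at -1.12 ± 0.23 (limma, adjusted p = 2.71e-05), which became -0.95 and -0.99 without either of 2 of the 21-nt libraries.

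A group of uncharacterised genes, chosen after their values were seen, turned from an even or 22-nt balance in es3 to a 21-nt balance in es3dd. AT3G44570, annotated as a retrotransposon protein, stood at 588 and 744 in es3 and at 2109 and 268 in es3dd by the authors' means. AT3G06435 stood at 1883 and 4487 in es3 and at 5169.5 and 1255 in es3dd, also by means alone. AT3G44580, next to AT3G44570 on chromosome 3, could be tested. It held 680.0, 686, 701 and 722 at 21 nt and 133, 152, 157 and 164 at 22 nt in es3dd, against 403 and 348 in es3, a change of -1.995 ± 0.10 (limma, adjusted p = 1.63e-25). AT3G44580 also holds an exact match to miR8175.

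MIR loci gave 2 changes toward 22 nt, at MIR169i and MIR169k, and 19 toward 21 nt, but with voom weights these became 0 and 3. In es3 the means at 21 and 22 nt were 0.876 and 2.45 at MIR169i and 0 and 1.28 at MIR169k. The es3 balance of these 2 loci is poorly fixed at such low values, and the size of their changes depends on the 1 added. The change at MIR169i, 1.95 ± 0.60, lost its call in 4 of the fits that left out 1 library, at 1.54 to 1.79. The 21-nt values of those 19 had a median of 16.3 in es3 and 121 in es3dd, and their 22-nt medians were 1.705 and 3.01, low in both genotypes. One es3dd library was the lowest at 33 of 68 MIR loci with at least 100 reads at 21 nt, with a log2 value relative to the mean of down to -3.13. At 22 nt, 1 library was the lowest at 15 of 37 such loci, down to -2.75. Whether both values come from the same plants is not known, and the part of these libraries in the MIR values was not tested.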

How the data were processed

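The sizes 21 and 22 nt were counted per gene in 4 es3 and 4 es3dd libraries, made from total RNA with a small RNA library kit. Bowtie 1.2.2, SAMtools 1.9, DESeq2 and TAIR10 are listed in the submitters' processing notes. Their roles, the counting rules and the handling of reads with several map positions are not given in the sources used here. The deposited file gives the authors' group means for 32420 genes under a TPM heading, but the deposited values are not such a unit: each mean is a sum of whole reads divided by a library factor close to 1. Those factors lay within 0.595% of a median-of-ratios scale over 12 libraries and in es3dd lay between 1.035 and 1.129 (21 nt) or 1.125 and 1.243 (22 nt), so 1 unit is about 1 read. In es3 they lay between 1.219 and 1.442 or 1.057 and 1.319. The summed means were 757782 and 215894 in es3dd and 525481 and 225727 in es3.

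The values of each library were recovered by searching for the whole reads that give each mean. In es3dd a single solution was found for 21557 of 21557 genes up to 1500 reads and 44 of 44 tried up to 4800 reads at 21 nt, and for 21832 of 21832 and 32 of 32 at 22 nt. The search left 39 and 19 genes without library values, and recovered genes made up 18.0% (21 nt) and 71.3% (22 nt) of the column sums. In es3, 65 and 18 genes were left. Recovered libraries carry no replicate number and cannot be linked between size classes or genotypes.

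limma 3.58.1 in R 4.3.3 was fitted to log2(value + 1), with its trend option, for genes with a mean of at least 1, with p-values adjusted by Benjamini-Hochberg over all genes tested. Calls needed an adjusted p below 0.05 and a log2 difference of 1 or more in size. A log2 difference with 1 added understates the change of low genes. The difference in es3dd used es3dd alone, and the change of balance used both genotypes in one fit. The scripts were tested on simulated data. Locus classes, miRNAs and sequences came from RefSeq TAIR10.1, to which, or to an organelle prefix, 2807 of the 2819 genes matched. In 12 pairs of genes both means were equal, 14 of those 24 genes being plastid-encoded. Python 3.11.15, numpy 2.4.6, pandas 2.3.3, numba 0.67.0 and matplotlib 3.10.9 were used.

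Genes named are the 8 highest and 8 lowest called differences without overlap, the 8 highest means of each size, the 6 largest called changes each way, members of fixed lists and genes at the edge of the rule, and others are said to be chosen after their values were seen. The genes and lists were chosen with earlier results of these data known. Alternatives were other pseudocounts, filters and scales, voom weights, a joint fit and each library left out.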

Additional observations from a re-analysis of the deposited data

Results flagged for a closer look

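The size balance differed between es3dd and es3, by limma's test of the difference itself, at 31 genes named above. Col was not part of that test, and its ratios are given above for some of these genes. Each value is the change in log2 units. Toward 22 nt, the change was 3.68 at AT3G23690, 3.56 at AT4G34220, 3.31 at AT1G53885 and at AT1G53903, 3.07 at IQD14, 2.89 at SWEET12 and 2.70 at AFB2. It was 2.86 at MIR169k, 1.97 at AT2G10920, 1.95 at MIR169i, 1.37 at TIR1, 1.195 at AFB3 and 1.17 at CAB1. Toward 21 nt, it was -3.77 at AT4G30750, -3.28 at MIR160b, -2.98 at MIR447c, -2.71 at AGO2, -2.71 at AT2G03570, -2.60 at CSK and -2.51 at AT3G57710. MIR169a stood at -2.36, MIR395a at -2.01, MIR395d at -2.01, MIR395e at -2.004, AT3G44580 at -1.995, AT1G12290 at -1.93 and AT3G57730 at -1.89. ATCG00530 stood at -1.53, MIR169f at -1.35, AT2G14070 at -1.06 and MIR390b at -1.05. At AT4G30750, MIR447c, CSK, AT3G57710, AT1G12290, MIR169a, MIR395a, MIR395d and MIR395e the 22-nt means were at most 3.01 in both genotypes. At MIR169i and MIR169k the es3 means were at most 2.45 in either size class. The size of the change at all of these depends on the 1 added. Several of these calls were lost under another setting. MIR390b lost its call in 9 of the fits that left out 1 library, at -1.04 to -0.78, on the plastid scale at -0.50 and with voom weights at -0.36. AT2G14070 lost it in 4 such fits, on the plastid scale at -0.51, with a pseudocount of 5 and with voom weights. MIR169f lost it on the plastid scale at -0.80 and with voom weights, and ATCG00530 on the plastid scale. Voom weights also ended the calls at MIR169a, MIR169i, MIR169k, MIR395a, MIR395d, MIR395e, MIR160b, AT1G12290, AT3G57710 and AFB3, and equal medians those at AFB3, TIR1, CAB1, AT2G10920 and MIR169i.

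In 6 of 129 groups of 4 libraries, 1 library stood apart from the other 3, about as many as the 1 in 20 that chance gives. AT1G36880 at 22 nt had 54.7 against 58.3 to 58.7, and AT5G36200 at 22 nt had 52.4 against 70.7 to 72.4. AT3G57730 at 21 nt had 139 against 99.7 to 106, and SWEET12 at 21 nt had 2.79 against 9.66 to 10.6. ATCG00840 and ATCG01300, which have equal values, had 1439 at 22 nt against 1007 to 1056.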

How the results depend on the processing

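No called difference or change of a named gene turned its direction under the alternatives run, and some lost their call. Genes called to 22 nt numbered 252 with a pseudocount of 5, 237 with medians set equal and 1786 on the plastid scale, against 489. Moves toward 22 nt and 21 nt numbered 78 and 942 with equal medians and 334 and 73 on the plastid scale, against 164 and 353. The cause was not tested. A sum of 10 or 50 in place of 20 took 4591 or 1235 genes, by construction, with 730 or 158 at a ratio of 1 or more. A pseudocount of 5 left 249 genes at a ratio of 1 or more, and centring on the median of the genes left 90, with 248 at -1 or less. Leaving out 1 library gave 485 to 531 calls to 22 nt, 118 to 123 to 21 nt, 146 to 168 moves toward 22 nt and 301 to 346 toward 21 nt. Voom weights ended 13 called changes of named genes, equal medians 5 and the plastid scale 4. No paired analysis was possible because libraries recovered from means bear no numbers and cannot be linked between size classes or genotypes, so the planned replicate block was not run. Genes at a few reads are limited by counting error, and the most abundant MIR loci have no error of their own.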
